A study of Homo sapiens with 4 samples.

Results

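Hypoxia-score cells are the BT474 breast cancer cells that stood highest for a set of oxygen-regulated transcripts, 446 of the 14867 cells in 4 single-cell libraries. A barcode was kept as a cell with at least 5000 UMIs (unique molecular identifiers, each standing for 1 captured RNA molecule), at least 500 genes and at most 50% mitochondrial UMIs. The score of a cell was the sum of its UMIs of NDRG1, VEGFA, MIR210HG, PGK1, LDHA, BNIP3, EGLN3 and FAM162A per 10000 UMIs. The 3% of cells with the highest score in each library were taken, which gave 102 of 3394 cells with fulvestrant, 103 of 3433 with neratinib, 114 of 3800 with both drugs and 127 of 4240 with DMSO. The remaining 14421 cells of the same libraries are the cells they are set against. Because measured values chose these cells, differences from the remaining cells are given as a description, with no test.

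When oxygen is scarce, the prolyl hydroxylases of the EGLN family no longer mark the alpha subunits of the hypoxia-inducible factors (HIF1A and EPAS1) for destruction by the VHL ubiquitin ligase. The stabilised subunit pairs with ARNT and binds short promoter and enhancer elements with the core ACGTG. Its targets switch metabolism towards glycolysis, call for new vessels, buffer acid and trigger mitophagy, and several of them, such as EGLN3, feed back on the pathway. In breast carcinomas this program is known from poorly perfused tumour regions. Growth factor signalling through the PI3K pathway can also raise HIF alpha protein in cells with oxygen.

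BT474 is an established human breast cancer line that carries the estrogen receptor and an amplified ERBB2 (HER2) gene. The cultures, kept in medium with 10% fetal bovine serum, received 100 nM fulvestrant (an estrogen receptor antagonist and degrader), 200 nM neratinib (an irreversible HER2 family kinase inhibitor), both drugs at these doses, or the vehicle DMSO, each for 4 h. All groups are the same line, were detached with trypsin and were given no low-oxygen treatment in the labels. Each treatment was 1 library, so no spread between cultures can be had and the 4 libraries are not replicates of a condition. The cells held 82749213 UMIs with fulvestrant, 82173894 with neratinib, 90314413 with both drugs and 101920190 with DMSO, of which hypoxia-score cells held 2444526, 2724503, 2904076 and 3053860 in that order. Levels are CPM, counts summed over cells and scaled to the UMIs of all genes outside the 8 score genes. Ratios are log2 ratios of CPM, hypoxia-score cells over remaining cells, and square brackets hold 95% intervals that cover counting error only.

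The binding core of the hypoxia-inducible factors is shown here in 6 promoters, picked as examples. They belong to score genes or to genes at least 1.5-fold higher in hypoxia-score cells of every library. The windows are from RefSeq, GRCh38.p14, read 5′ to 3′ on the gene's strand, with ACGTG or its reverse complement CACGT in capitals (CACGTG holds both).
LDHA, chr11:18394464-18394493, plus strand, motif 87 bases before the start: cagcccgactcaCACGTGggttcccgcacg
PGK1, chrX:78104034-78104063, plus strand, motif 202 bases before the start: gcggcgtgccggACGTGacaaacggaagcc
BNIP3, chr10:131982040-131982069, minus strand, motif 134 bases before the start: gcgcacgcgccgCACGTGccacacgcaccc
MIR210HG, chr11:568610-568639, minus strand, motif 170 bases before the start: ctccccgggcagACGTGcagaaaagaacgc
ANKRD37, chr4:185396667-185396696, plus strand, motif 162 bases before the start: ggcgccgggctcCACGTGccagtgtttgtg
GPI, chr19:34364818-34364847, plus strand, motif 162 bases before the start: acactgcctgtaACGTGgaaggtgttcgat
LDHA makes lactate from pyruvate, PGK1 and GPI are glycolytic enzymes, BNIP3 is a mitophagy receptor, MIR210HG is the host transcript of a hypoxia-induced microRNA and ANKRD37 is an ankyrin repeat protein.

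The motif was searched on both strands of windows from 250 bases before to 50 bases after each start. It was present in 5 of 6 score genes with a promoter in the table (not in EGLN3). Of the genes at least 1.5-fold higher in hypoxia-score cells of every library, 12 of 20 held it (60%), and of those at least 1.5-fold lower 5 of 10 did (50%). Among genes of like abundance (mean of at least 20 CPM), 1412 of 4006 held it, or 35.2%. Among all genes listed 6790 of 27305 held it in any promoter, or 24.9%, and 21.4% of single promoters did. The 6 promoters shown were picked from those with the motif, and of the higher genes ENO1, PGAM1 and PKM, among others, held none. A match describes these letters and not a bound site.

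The score had no gap at the 3% limit. Its main mode lay between 7 and 8.51 in all 4 libraries, cells thinned out to a low between 15 and 18.0, and a shoulder followed. Cells with a score of at least 16 made up 16.9% with fulvestrant, 15.8% with neratinib, 13.1% with both drugs and 17.0% with DMSO. Hypoxia-score cells are the upper end of this continuous tail. The lowest chosen and the highest remaining score were 40.09 and 40.08 with fulvestrant, 35.15 and 35.04 with neratinib, 32.38 and 32.34 with both drugs, and 40.56 and 40.51 with DMSO. Within 10% of the limit lay 38, 41, 44 and 55 chosen cells above it in fulvestrant, neratinib, both-drug and DMSO libraries, and 47, 38, 45 and 78 remaining cells below it.

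**Figure D1:**
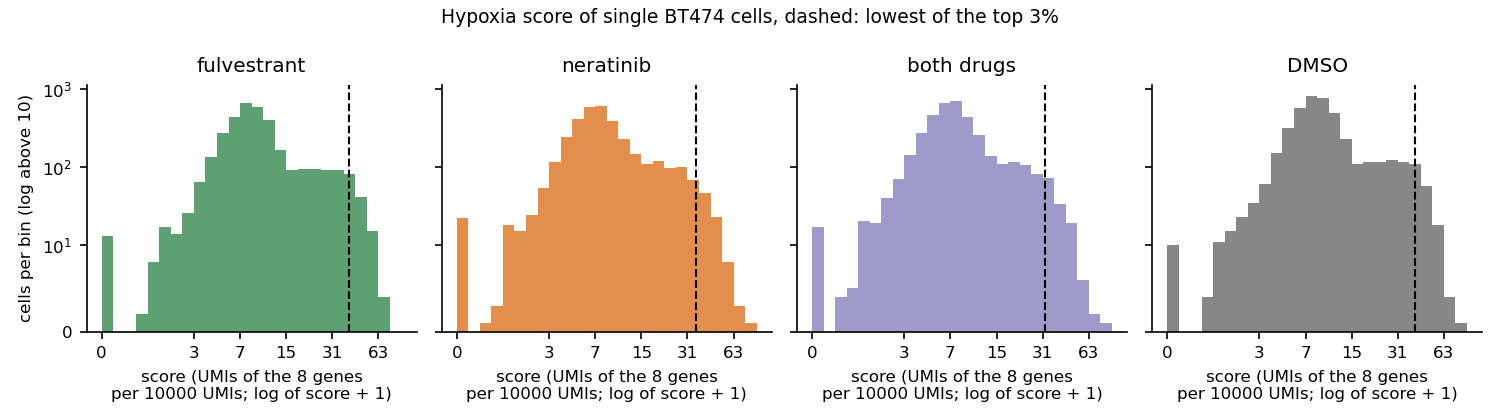
Distribution of the hypoxia score in each library (x axis: UMIs of the 8 genes per 10000 UMIs, log scale of score + 1; y axis: cells per bin, log above 10), with a dashed line at the lowest score of the top 3%. The line falls within a continuous upper tail, at 40.09 with fulvestrant, 35.15 with neratinib, 32.38 with both drugs and 40.56 with DMSO.

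Pooled over the 4 libraries, median depth and quality of the chosen cells were close to those of the rest. Their median was 23078.5 UMIs and 4338.5 genes per cell, against 22627 UMIs and 4364 genes in the remaining cells. By library the chosen cells had more UMIs with neratinib (24877 against 22379) and both drugs (24080 against 22155). They had fewer with fulvestrant (22004.5 against 23330) and DMSO (21943 against 22773). The median mitochondrial share was 18.9%, against 18.5%, and both values were higher in the 2 neratinib libraries (21.1% and 21.2% in hypoxia-score cells, against 20.9% and 21.0%) than in the other 2. There were 44 cells whose barcode was also a cell of another library, 1 of them a hypoxia-score cell. Cells with over 2 times their library's median UMIs, which doublets can be, numbered 2 (fulvestrant), 4 (neratinib), 3 (both drugs) and 2 (DMSO) among hypoxia-score cells. Among the far more numerous remaining cells they numbered 42 (fulvestrant), 67 (neratinib), 87 (both drugs) and 108 (DMSO). As shares of hypoxia-score cells these were 1.961% (fulvestrant), 3.883% (neratinib), 2.632% (both drugs) and 1.575% (DMSO). The shares of remaining cells were 1.276% (fulvestrant), 2.012% (neratinib), 2.360% (both drugs) and 2.626% (DMSO). The share was thus higher in hypoxia-score cells with fulvestrant, neratinib and both drugs and lower with DMSO, from few cells in each library.

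Each gene was left out of the score in turn, the top 3% chosen again from the other 7, and the gene left out was read. Of the cells so chosen, 76.2% (without LDHA) to 98.0% (without MIR210HG) were the same. The 8 genes were set with earlier results of these data known. The values therefore describe how the genes go together and do not test the label. All 8 genes were then higher in the chosen cells of all 4 libraries. Mean log2 ratios, with the range over libraries, were 2.72 (2.51 to 2.87) for MIR210HG, 2.07 (1.89 to 2.18) for BNIP3, 2.03 (1.61 to 2.42) for VEGFA, 2.02 (1.95 to 2.06) for PGK1 and 1.97 (1.94 to 2.03) for LDHA. They were 1.93 (0.96 to 2.82) for NDRG1, 1.69 (1.6 to 1.77) for FAM162A and 1.57 (1.2 to 1.95) for EGLN3. Each of the 8 transcripts was thus higher in cells chosen by the other 7, MIR210HG with the highest mean and EGLN3 with the lowest.

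Single hypoxia-score cells held UMIs of several score genes at once, which the rule, a sum over the same 8 genes, itself favours. The median number of score genes with a UMI was 7 (fulvestrant), 6 (neratinib), 6 (both drugs) and 7 (DMSO) in hypoxia-score cells, against 5 (fulvestrant), 5 (neratinib), 4 (both drugs) and 5 (DMSO) in the remaining cells. With every cell thinned to 5000 UMIs it was 5 (fulvestrant), 4 (neratinib), 4 (both drugs) and 5 (DMSO) in hypoxia-score cells, against 2 (fulvestrant), 2 (neratinib), 2 (both drugs) and 3 (DMSO) in the remaining cells. LDHA and PGK1 made up most of the sum. LDHA gave 43.5% (fulvestrant), 42.4% (neratinib), 43.8% (both drugs) and 45% (DMSO) of the score UMIs of hypoxia-score cells, and PGK1 gave 31.6% (fulvestrant), 35.3% (neratinib), 35.7% (both drugs) and 30.8% (DMSO). A score without these 2 genes chose 268 of the same 446 cells (60.1%), and one in which each of the 8 genes had equal weight chose 240 (53.8%). A random draw of 1 in 2 UMIs chose 369 of them (82.7%), and cells thinned to 5000 UMIs 307 (68.8%). Fewer of the same cells were thus chosen under the 2 other weightings than with reduced counts.

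NDRG1, a stress-induced differentiation and trafficking protein, had 125 CPM (fulvestrant), 78.5 (neratinib), 58.4 (both drugs) and 121 (DMSO) in hypoxia-score cells, against 16.5 CPM (fulvestrant), 30.2 (neratinib), 28.3 (both drugs) and 16.6 (DMSO) in the remaining cells. Its level in hypoxia-score cells was lower in both neratinib libraries, while its level in the remaining cells was higher there. The log2 ratio was 2.92 (fulvestrant), 1.38 (neratinib), 1.05 (both drugs) and 2.87 (DMSO). VEGFA, the main angiogenic ligand, had 108 CPM (fulvestrant), 36.9 (neratinib), 33.2 (both drugs) and 108 (DMSO) in hypoxia-score cells, against 19.4 CPM (fulvestrant), 9.29 (neratinib), 8.44 (both drugs) and 22.0 (DMSO) in the remaining cells. Both neratinib libraries were low for VEGFA in both kinds of cell, and the log2 ratio varied less, between 1.98 and 2.47.

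MIR210HG had 41.9 CPM (fulvestrant), 24.0 (neratinib), 21.4 (both drugs) and 51.0 (DMSO) in hypoxia-score cells, against 6.92 CPM (fulvestrant), 3.6 (neratinib), 2.86 (both drugs) and 6.68 (DMSO) in the remaining cells. EGLN3, the oxygen-sensing hydroxylase that is itself a target, had 107 CPM (fulvestrant), 36.5 (neratinib), 25.9 (both drugs) and 121 (DMSO) in hypoxia-score cells, against 25.2 CPM (fulvestrant), 14.9 (neratinib), 10.2 (both drugs) and 28.9 (DMSO) in the remaining cells. As with VEGFA, the neratinib libraries were the low ones in both kinds of cell. LDHA had 2078 CPM (fulvestrant), 1829 (neratinib), 1752 (both drugs) and 2176 (DMSO) in hypoxia-score cells, against 484 CPM (fulvestrant), 378 (neratinib), 365 (both drugs) and 498 (DMSO) in the remaining cells. PGK1 had 1507 CPM (fulvestrant), 1522 (neratinib), 1427 (both drugs) and 1488 (DMSO) in hypoxia-score cells, against 329 CPM (fulvestrant), 331 (neratinib), 309.6 (both drugs) and 334 (DMSO) in the remaining cells. PGK1 was nearly level between treatments, and LDHA was lower in the neratinib libraries in both kinds of cell. The mitophagy receptor BNIP3 had 385 CPM (fulvestrant), 399 (neratinib), 335 (both drugs) and 382 (DMSO) in hypoxia-score cells, against 81.4 CPM (fulvestrant), 82.7 (neratinib), 81.8 (both drugs) and 78.0 (DMSO) in the remaining cells. FAM162A, a mitochondrial protein linked to hypoxic cell death, had 425 CPM (fulvestrant), 384 (neratinib), 349 (both drugs) and 386 (DMSO) in hypoxia-score cells, against 118 CPM (fulvestrant), 102 (neratinib), 98.6 (both drugs) and 111 (DMSO) in the remaining cells. For 7 of the 8 genes every library's chosen cells stood above every library's remaining cells, which the rule itself favours. The exception was EGLN3, whose both-drug hypoxia-score cells stood below the DMSO remaining cells.

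**Figure D2:**
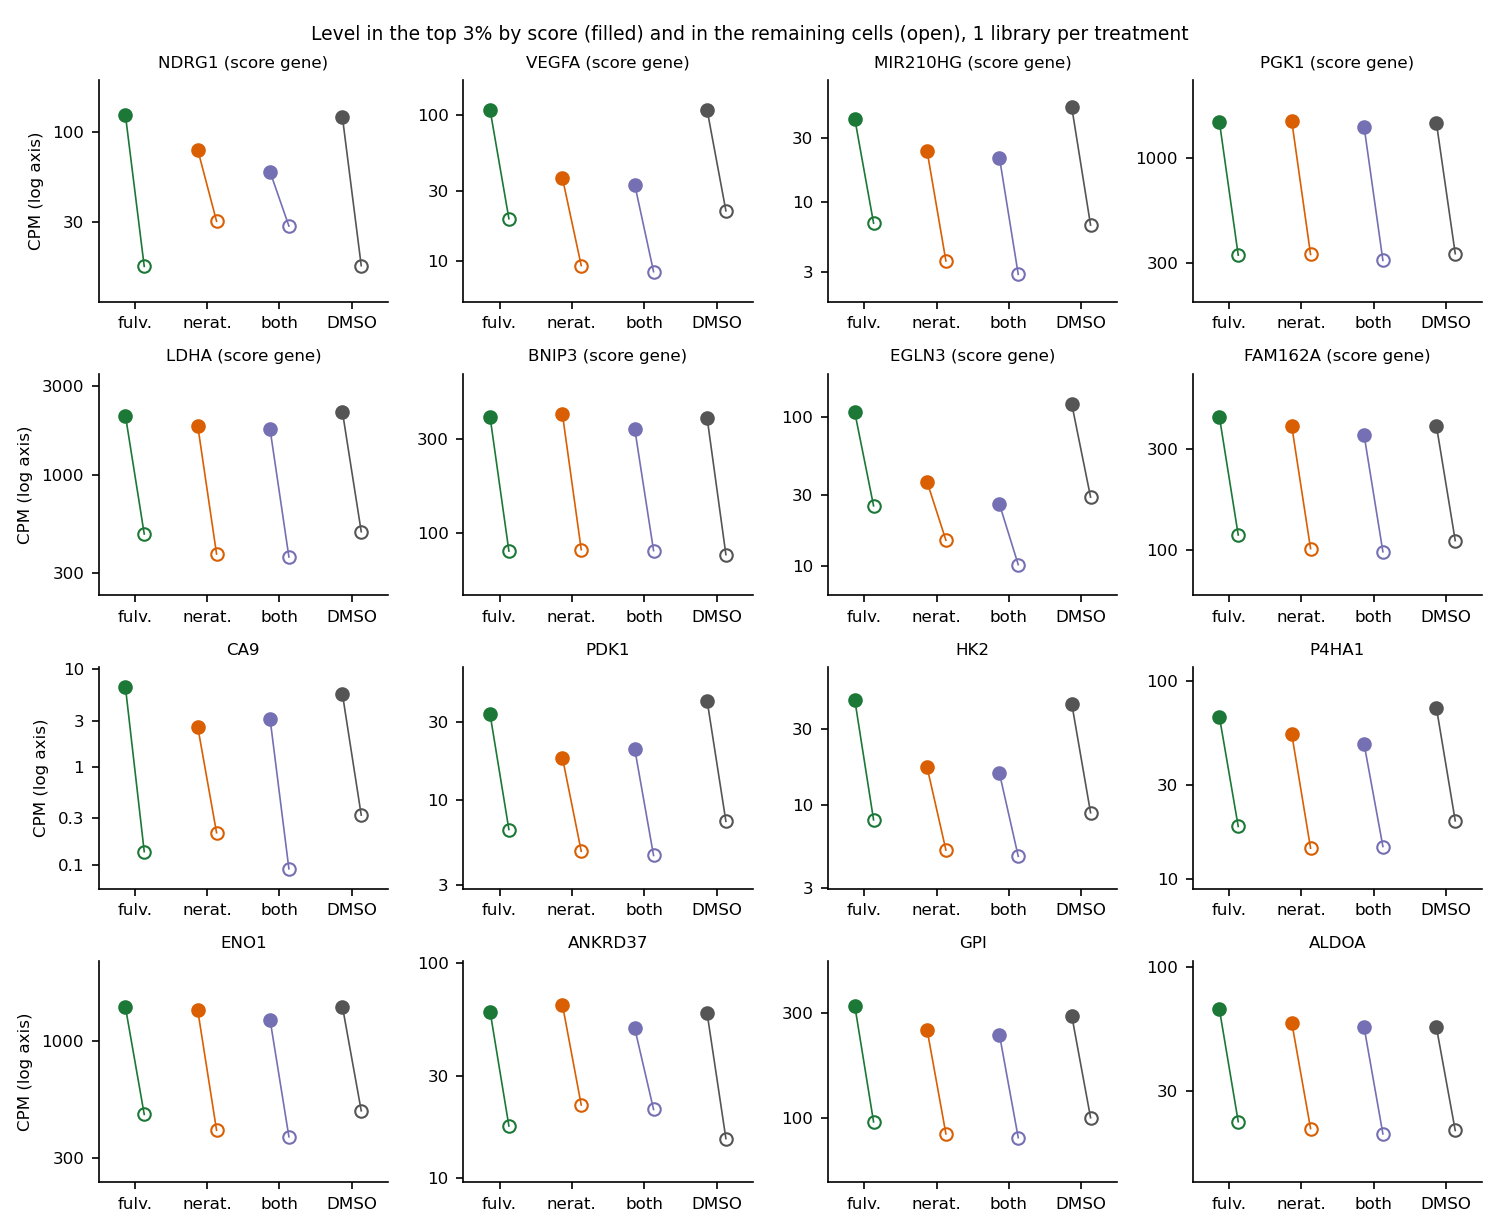
Level in CPM (log axis) of the 8 score genes and of 8 genes outside the score in hypoxia-score cells (filled) and remaining cells (open) of each library. PGK1 is nearly level across treatments, VEGFA and EGLN3 are low in both neratinib libraries, and CA9 is near 0 in the remaining cells.

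CA9, the membrane carbonic anhydrase that is a widely used hypoxia marker and is not in the score, was concentrated at the top of the score. It had 6.58 CPM (fulvestrant), 2.58 (neratinib), 3.11 (both drugs) and 5.59 (DMSO) in hypoxia-score cells, from 16, 7, 9 and 17 UMIs, against 0.137 CPM (fulvestrant), 0.214 (neratinib), 0.0916 (both drugs) and 0.324 (DMSO) in the remaining cells, from 11, 17, 8 and 32 UMIs. The log2 ratio was 5.58 [4.39, 6.84] with fulvestrant, 3.59 [2.08, 4.93] with neratinib, 5.09 [3.54, 6.66] with both drugs and 4.11 [3.17, 5.0] with DMSO. Within the DMSO library, from the lowest 50% of the score through the next 30%, 10% and 7% to the top 3%, CA9 had 0, 0.0322, 0.496, 3.76 and 5.59 CPM. CA12, a second carbonic anhydrase that is also an estrogen receptor target, showed no such excess, with 10.0 to 23.7 CPM in hypoxia-score cells, against 15.1 to 27.8 CPM in the remaining cells. ADM, the vasodilator peptide adrenomedullin, had 2.07 to 5.34 CPM in hypoxia-score cells, against 1.58 to 2.77 CPM in the remaining cells, a mean log2 ratio of 0.71.

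Glycolysis genes outside the score were higher together. Of the 4950 genes outside the score with a mean of at least 20 CPM, 23 were at least 1.5-fold higher in hypoxia-score cells of every library (0.465% of those genes) and 13 at least 1.5-fold lower (0.263%). At a mean of at least 5 CPM, which gene lists used, 41 of 9163 genes were that much higher (0.447%) and 48 lower (0.524%). Of the glycolysis list, 17 of 26 genes reached 5 CPM, and 11 of these were at least 1.5-fold higher in every library and 15 higher by any amount (10.1% of all genes). Their median log2 ratio was 1.11, against -0.10 over all 9163 genes, and by library it was 1.05 (fulvestrant), 1.17 (neratinib), 1.11 (both drugs) and 1.1 (DMSO).

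The entry steps were high. HK2, the inducible hexokinase, had 46.0 CPM (fulvestrant), 17.3 (neratinib), 15.9 (both drugs) and 43.4 (DMSO) in hypoxia-score cells, against 8.09 CPM (fulvestrant), 5.23 (neratinib), 4.77 (both drugs) and 8.97 (DMSO) in the remaining cells. GPI had 324 CPM (fulvestrant), 252 (neratinib), 239 (both drugs) and 292 (DMSO) in hypoxia-score cells, against 95.7 CPM (fulvestrant), 84.3 (neratinib), 81.0 (both drugs) and 100.0 (DMSO) in the remaining cells. The isomerase thus averaged 3.06-fold and HK2 4.18-fold higher, and the levels of HK2 were again lowest in the 2 neratinib libraries. SLC2A1, the glucose transporter, had 11.1 to 38.8 CPM in hypoxia-score cells, against 10.8 to 17.2 CPM in the remaining cells, with a log2 ratio of 1.22 (fulvestrant), 0.16 (neratinib), 0.03 (both drugs) and 1.17 (DMSO). PGM1, which links glycogen to glycolysis, had 23.0 to 29.0 CPM in hypoxia-score cells, against 9.06 to 9.64 CPM in the remaining cells, and PFKP, the platelet phosphofructokinase, 64.3 to 91.8 CPM in hypoxia-score cells, against 27.8 to 44.9 CPM in the remaining cells.

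Lower glycolysis followed the same pattern. ALDOA, which splits fructose bisphosphate, had 66.2 CPM (fulvestrant), 58.2 (neratinib), 55.7 (both drugs) and 55.6 (DMSO) in hypoxia-score cells, against 22.3 CPM (fulvestrant), 20.9 (neratinib), 19.8 (both drugs) and 20.5 (DMSO) in the remaining cells. ENO1 had 1418 CPM (fulvestrant), 1372 (neratinib), 1245 (both drugs) and 1428 (DMSO) in hypoxia-score cells, against 470.1 CPM (fulvestrant), 399 (neratinib), 374 (both drugs) and 488 (DMSO) in the remaining cells. These are 2.82-fold and 3.17-fold averages. The summed level in hypoxia-score cells of each library stood above that in the remaining cells of every library, and single cells were not compared. TPI1, GAPDH, PGAM1 and PKM had mean log2 ratios of 0.95 (0.87 to 1.06), 1.11 (1.05 to 1.17), 1.29 (1.21 to 1.43) and 0.88 (0.81 to 0.98), with the range over libraries in brackets. PDK1, the kinase that keeps pyruvate out of the mitochondrial dehydrogenase, had 33.3 CPM (fulvestrant), 18.1 (neratinib), 20.4 (both drugs) and 40.5 (DMSO) in hypoxia-score cells, against 6.56 CPM (fulvestrant), 4.83 (neratinib), 4.55 (both drugs) and 7.36 (DMSO) in the remaining cells. Its mean ratio, 2.22 (1.90 to 2.46), was the highest of the glycolysis list. HK1, the constitutive hexokinase, LDHB and PFKM were the members nearest to or below 0, with means of 0.24, -0.02 and -0.33. GAPDH, LDHA, ENO1 and PGAM1 have near-identical pseudogene copies, so their levels are uncertain to the extent that reads were shared, which the labels do not describe.

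Other targets of the hypoxia-inducible factors were higher less uniformly. Of 55 genes, 36 reached 5 CPM, 7 were at least 1.5-fold higher in every library, 20 were higher by any amount and 2 lower, against 10.1% and 28.7% of all genes. The list's median log2 ratio was 0.32 and ran 0.54 (fulvestrant), 0.22 (neratinib), 0.10 (both drugs) and 0.61 (DMSO), so the neratinib libraries had the smaller values. P4HA1, a collagen prolyl hydroxylase and the highest of the list, had 65.8 CPM (fulvestrant), 53.8 (neratinib), 48.1 (both drugs) and 73.0 (DMSO) in hypoxia-score cells, against 18.5 CPM (fulvestrant), 14.4 (neratinib), 14.6 (both drugs) and 19.7 (DMSO) in the remaining cells. The related P4HA2 and the collagen lysyl hydroxylases PLOD1 and PLOD2 had means of 0.74, 0.89 and 0.73. ANKRD37 had 59.6 CPM (fulvestrant), 64.1 (neratinib), 49.8 (both drugs) and 58.6 (DMSO) in hypoxia-score cells, against 17.5 CPM (fulvestrant), 21.9 (neratinib), 20.9 (both drugs) and 15.3 (DMSO) in the remaining cells. BNIP3L, the mitophagy receptor related to BNIP3, had 124 to 149 CPM in hypoxia-score cells, against 52.2 to 63.5 CPM in the remaining cells, a mean of 1.23 (0.99 to 1.48). ERO1A, the endoplasmic reticulum thiol oxidase, averaged 1.09 (0.92 to 1.26), and MIF, a cytokine, 0.82 (0.75 to 0.89). EGLN1 had 6.91 to 20.7 CPM in hypoxia-score cells, against 5.77 to 8.73 CPM in the remaining cells, with 1.05 (fulvestrant), 1.03 (neratinib), 0.26 (both drugs) and 1.27 (DMSO) on the log2 scale. DDIT4, an inhibitor of mTOR complex signalling, ran 1.49 (fulvestrant), 1.04 (neratinib), 0.46 (both drugs) and 1.23 (DMSO). The ligand EFNA1 and CA12 were the 2 members lower in every library, with means of -0.40 and -0.34.

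The list of oxygen-sensing genes, which leaves out EGLN1 and EGLN3 as targets of the pathway, held no gene with differences of that size. HIF1A had 57.5 CPM (fulvestrant), 33.9 (neratinib), 37.3 (both drugs) and 61.2 (DMSO) in hypoxia-score cells, against 52.4 CPM (fulvestrant), 38.4 (neratinib), 38.7 (both drugs) and 52.4 (DMSO) in the remaining cells. Its log2 ratio was 0.13 [-0.12, 0.38] with fulvestrant, -0.18 [-0.49, 0.12] with neratinib, -0.05 [-0.34, 0.22] with both drugs and 0.22 [0.00, 0.43] with DMSO. VHL had 12.2 to 23.0 CPM in hypoxia-score cells, against 18.1 to 21.8 CPM in the remaining cells. ARNT was low everywhere, at 3.69 to 7.57 CPM in hypoxia-score cells, against 6.90 to 7.76 CPM in the remaining cells, as was EPAS1 at 0.369 to 2.47 CPM in hypoxia-score cells, against 1.03 to 1.62 CPM in the remaining cells. None of the 12 measured genes of the list (HIF subunits, the VHL ligase, coactivators and SIAH ligases) was 1.5-fold different in every library, and their median was -0.10. The protein level of HIF1A, at which oxygen acts, was not measured.

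Mitochondrial respiration genes stood close to the median gene. The 36 nuclear genes of oxidative phosphorylation had a median of -0.04, with 3 higher and 13 lower in all 4 libraries and none past 1.5-fold, against 10.1% of all genes higher and 28.7% lower in all 4. NDUFA4, a subunit of cytochrome oxidase, had 1205 to 1260.2 CPM in hypoxia-score cells, against 1388 to 1444 CPM in the remaining cells, a mean of -0.21 (-0.22 to -0.20). COX8A, another subunit of that complex, averaged 0.26 (0.23 to 0.31). The 13 mitochondrial transcripts ranged from -0.37 (-0.58 to -0.15) for MT-ATP8 to 0.33 (0.23 to 0.40) for MT-ND5, with MT-CO1 at 0.28 (0.18 to 0.37). The 20 genes of the tricarboxylic acid cycle had a median of -0.10, with the carboxylase PC at -0.54 (-1.07 to -0.08), IDH3A at -0.38 (-0.61 to -0.04) and IDH2 at 0.22 (0.13 to 0.35).

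Lipid synthesis genes were moderately higher. SCD, the desaturase that makes oleate and needs oxygen, had 205 CPM (fulvestrant), 178 (neratinib), 169.7 (both drugs) and 210.3 (DMSO) in hypoxia-score cells, against 109 CPM (fulvestrant), 82.6 (neratinib), 85.3 (both drugs) and 100.1 (DMSO) in the remaining cells, and all 4 libraries were high. FADS1 and FADS2, fatty acid desaturases, averaged 0.70 (0.60 to 0.91) and 0.66 (0.51 to 0.83), and the regulator SREBF1 0.53 (0.32 to 0.68). Of 13 measured fatty acid genes 9 were higher in every library, 2 of them (SCD and FADS1) by 1.5-fold, with a median of 0.27, against 10.1% and 0.447% of all genes. Of 20 measured cholesterol genes 15 were higher in every library and none by 1.5-fold, with a median of 0.31. MVD, INSIG1, MSMO1 and HMGCS1 led that list, at 0.70 (0.55 to 0.94), 0.66 (0.56 to 0.77), 0.64 (0.43 to 0.87) and 0.59 (0.52 to 0.62).

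Mitotic transcripts were also higher. Of 54 measured G2M genes 45 were higher in all 4 libraries, against 10.1% of all genes, and the median was 0.42. CCNB2, a mitotic cyclin, had 124 CPM (fulvestrant), 168 (neratinib), 142 (both drugs) and 132 (DMSO) in hypoxia-score cells, against 76.6 CPM (fulvestrant), 99.3 (neratinib), 85.7 (both drugs) and 78.3 (DMSO) in the remaining cells. It was the list's only gene past 1.5-fold in every library, and CDC20, BIRC5 and AURKB followed at 0.63 (0.55 to 0.74), 0.62 (0.50 to 0.79) and 0.61 (0.36 to 0.83). MKI67, the proliferation antigen, had 70.3 to 102 CPM in hypoxia-score cells, against 54.7 to 61.5 CPM in the remaining cells, a mean of 0.44 (0.22 to 0.75). Of 45 S phase genes 14 were higher in every library, with a median of 0.21 that ran -0.06 (fulvestrant), 0.44 (neratinib), 0.24 (both drugs) and 0.23 (DMSO). RRM2, a ribonucleotide reductase subunit, averaged 0.56 (0.28 to 0.69).

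By phase score, cells called G2M made up 38.2% [28.8, 48.4] of hypoxia-score cells against 21.7% [20.3, 23.1] of the remaining cells with fulvestrant, and 38.8% [29.4, 48.9] against 25.6% [24.1, 27.1] with neratinib. With both drugs the shares were 33.3% [24.8, 42.8] against 22.1% [20.8, 23.5], and with DMSO 26.8% [19.3, 35.4] against 24.1% [22.8, 25.5]. These intervals are exact Clopper-Pearson and treat cells as independent. The DMSO intervals overlap and those of the other 3 libraries do not. The G2M share in the 7% of cells just below the top 3% was 20.7% [15.7, 26.4] with fulvestrant, 25.8% [20.4, 31.9] with neratinib, 22.2% [17.3, 27.7] with both drugs and 19.9% [15.5, 24.9] with DMSO. In the lowest 50% of the score it was 23.9% [21.9, 26] with fulvestrant, 24.8% [22.7, 26.9] with neratinib, 20.9% [19.1, 22.8] with both drugs and 27.0% [25.1, 28.9] with DMSO, so in the DMSO library the lowest 50% and the top 3% had nearly the same share. Cells called S made up 19.6% (fulvestrant), 27.2% (neratinib), 32.5% (both drugs) and 29.9% (DMSO) of hypoxia-score cells, against 24.5% (fulvestrant), 17.3% (neratinib), 19.5% (both drugs) and 22.4% (DMSO) of the remaining cells. Among cells scored as neither S nor G2M, the glycolysis list still had a median of 0.99 and 36 genes were at least 1.5-fold higher in every library.

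Several of the remaining genes past 1.5-fold belong to none of these groups. C4orf3, a small membrane protein that regulates calcium pumps, had 198 to 291 CPM in hypoxia-score cells, against 79.2 to 108 CPM in the remaining cells, and TTYH3, an anion channel, 40.8 to 48.5 CPM in hypoxia-score cells, against 20.2 to 21.8 CPM in the remaining cells. NMB, the peptide neuromedin B, had 34.7 to 47.4 CPM in hypoxia-score cells, against 17.4 to 23.1 CPM in the remaining cells. VIM, the intermediate filament of mesenchymal cells, had 73.6 to 98.1 CPM in hypoxia-score cells, against 44.7 to 53.9 CPM in the remaining cells, a mean of 0.84 (0.72 to 0.95). PTTG1 (securin, a mitotic protein that the G2M list does not hold), HPRT1 (purine salvage), SEC61G (protein translocation) and ILVBL completed the 23. Their means were 0.81, 0.80, 0.80 and 0.74. Below the 20 CPM limit, HLA-B averaged 0.93 (0.86 to 0.98), and the closely related HLA-C, above that limit, 0.47 (0.27 to 0.60).

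The 13 genes at least 1.5-fold lower had mean log2 ratios of -0.72 to -1.31. PGR, the progesterone receptor and a classical estrogen receptor target, had 48.9 CPM (fulvestrant), 78.1 (neratinib), 43.9 (both drugs) and 68.8 (DMSO) in hypoxia-score cells, against 83.0 CPM (fulvestrant), 177 (neratinib), 95.3 (both drugs) and 146 (DMSO) in the remaining cells. It was lower in hypoxia-score cells of each library, by an average of 2.05-fold. ESR1, the estrogen receptor itself, had 6.22 to 12.5 CPM in hypoxia-score cells, against 12.1 to 18.5 CPM in the remaining cells, a mean of -0.74 (-1.05 to -0.56). DKK1, a secreted WNT antagonist, had 16.4 CPM (fulvestrant), 19.9 (neratinib), 20.1 (both drugs) and 12.2 (DMSO) in hypoxia-score cells, against 34.4 CPM (fulvestrant), 58.3 (neratinib), 49.1 (both drugs) and 30.3 (DMSO) in the remaining cells, the largest mean difference of the 13 at 2.47-fold lower. ANXA1, a phospholipid-binding protein, had 38.6 CPM (fulvestrant), 31.7 (neratinib), 39.8 (both drugs) and 20.1 (DMSO) in hypoxia-score cells, against 69.0 CPM (fulvestrant), 79.2 (neratinib), 67.7 (both drugs) and 69.9 (DMSO) in the remaining cells. TWIST1, a mesenchymal transcription factor, averaged -1.1 (-1.69 to -0.73), COL12A1, a collagen, -1.04 (-1.39 to -0.71), and MGP, a matrix calcification inhibitor, -0.96 (-1.09 to -0.78).

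The other 7 of the 13 were weakly expressed to moderate. FGFR4, a growth factor receptor, had 12.9 to 19.1 CPM in hypoxia-score cells, against 26.6 to 33.1 CPM in the remaining cells, and HOXB13, a homeobox factor, 8.88 to 15.9 CPM in hypoxia-score cells, against 16.2 to 28.4 CPM in the remaining cells. PREX1, a RAC exchange factor, averaged -0.84 (-1.01 to -0.62), MYOF (myoferlin) -0.88 (-1.37 to -0.67), SHISA2 -0.88 (-1.04 to -0.59), THSD4 -0.79 (-1.05 to -0.60) and RHOBTB3 -0.72 (-0.87 to -0.61). VIM and TWIST1, both from the basal and mesenchymal list, lay on opposite sides. ERBB2, the amplified receptor gene, had 849 CPM (fulvestrant), 672 (neratinib), 683 (both drugs) and 773 (DMSO) in hypoxia-score cells, against 1022 CPM (fulvestrant), 961 (neratinib), 916 (both drugs) and 980.1 (DMSO) in the remaining cells. It was lower in each library, -0.27 [-0.33, -0.20] with fulvestrant, -0.52 [-0.58, -0.45] with neratinib, -0.42 [-0.49, -0.36] with both drugs and -0.34 [-0.40, -0.28] with DMSO. BRD8, the bromodomain subunit of the TIP60 complex, had 15.6 to 59.5 CPM in hypoxia-score cells, against 22.6 to 59.1 CPM in the remaining cells.

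Some of these differences were graded along the score, with examples given here and no count over all genes. Given from the lowest 50% of cells through the next 30%, 10% and 7% to the top 3%, ENO1 in the DMSO library had 402, 458, 623, 1059 and 1428 CPM, and PDK1 4.38, 5.77, 14.6, 25.9 and 40.5 CPM. With neratinib ENO1 had 311, 378, 555, 878 and 1372 CPM. Both genes were higher in each successive band. SCD in the DMSO library had 89.5, 89.8, 137, 169.8 and 210.3 CPM, a smaller gradient of the same form. ANXA1 in that library declined, at 79.9, 65.6, 52.2, 42.5 and 20.1 CPM, and so did ERBB2, at 998, 985, 948, 875 and 773 CPM. Other lower genes were not evenly graded in the DMSO library, such as MGP at 334, 392, 330, 171 and 199 CPM. DKK1 stood at 35.6, 24.1, 28.6, 22.7 and 12.2 CPM. CCNB2 differed in form, at 78.3, 80.6, 70.5, 79.8 and 132 CPM, with its excess in the top band. When the 8 score genes had equal weight, the CCNB2 ratio turned to -0.10, so its direction depends on that choice. Against the lowest 80% of cells alone, the glycolysis median was 1.24, while the CDC20 ratio was 0.62 and thus hardly differed from that against all remaining cells.

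**Figure D3:**
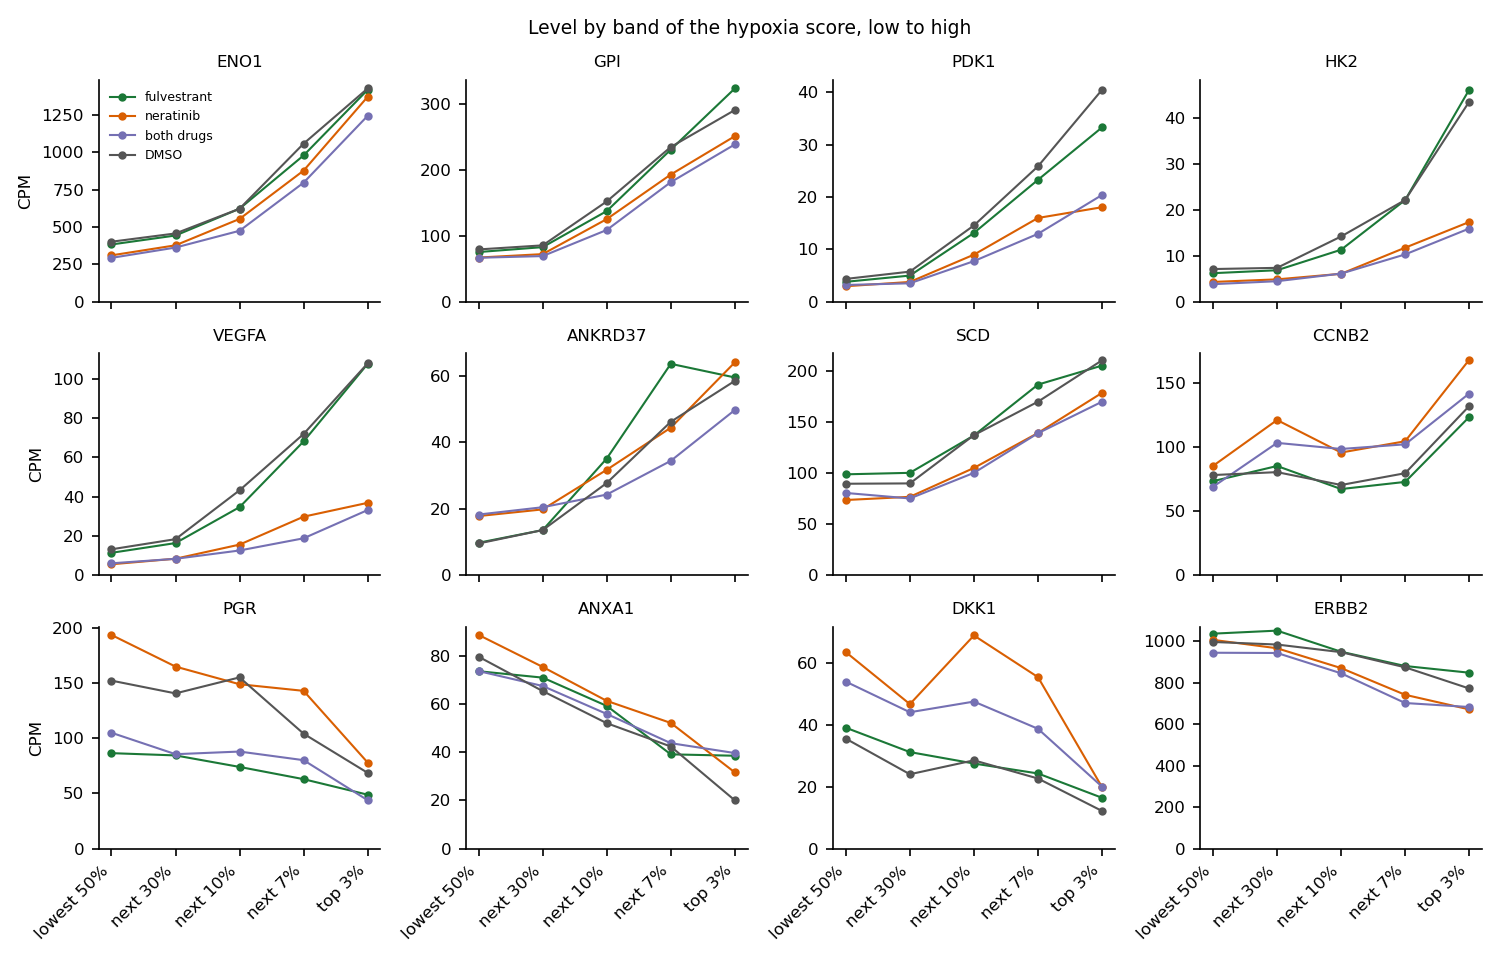
Level in CPM of 12 genes by band of the score, from the lowest 50% of cells to the top 3%, 1 line per library. ENO1, GPI, PDK1 and VEGFA are higher in each successive band, ANKRD37 with fulvestrant is not higher in the top 3% than in the next 7%, CCNB2 is highest in the top 3%, and PGR, ANXA1 and ERBB2 are lowest there.

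The remaining lists of BT474 programs had medians between -0.27 and 0.29. Estrogen receptor targets had a median of -0.13 (25 measured, 5 higher and 9 lower in every library), heat shock genes -0.10 (16 measured, 10 lower) and ATF4 targets -0.11 (23 measured, 9 lower). Over all 9163 genes 10.1% were higher and 28.7% lower in every library. HSPH1, a heat shock chaperone, averaged -0.38 (-0.50 to -0.29), and CEBPB, a stress-responsive transcription factor, -0.54 (-0.63 to -0.46). Ribosome biogenesis had a median of -0.11, with SRM at -0.52 (-0.65 to -0.40). The unfolded protein response stood at -0.12, p53 targets at -0.17, luminal genes at -0.01, FOXO targets at -0.01, ribosomal proteins at 0.01 and lysosome and autophagy genes at -0.08. The TIP60 and BET list stood at -0.03, immediate early genes at 0.05, ERK output at 0.20 and interferon genes at 0.03. Among lists with under 5 measured genes were metallothioneins (0.29), NF-kB targets (-0.27), nuclear RNAs (-0.07) and basal or mesenchymal genes (0.12). The marker lists of other cell types had 1 measured gene or none, COL1A1 for fibroblasts (0.60) and EGFL7 for endothelium (0.65).

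Single members of these lists stood further out. Among immediate early genes, FOS averaged 0.91 (0.47 to 1.33) and NR4A1 0.54 (0.30 to 0.80), while EGR1 averaged -0.86 (-2.38 to 0.20) with both signs among libraries. BAG3, a cochaperone of the heat shock list, averaged -0.80 (-1.51 to -0.02). GABARAPL1, an autophagosome protein and FOXO target, averaged -0.62 (-0.85 to -0.13), and WIPI1, an early autophagy protein, -0.61 (-0.97 to -0.19). BECN1, another autophagy gene, averaged -0.48 (-0.61 to -0.19). All 3 were lower in every library. Of the 20 measured lysosome and autophagy genes 5 were lower and 2 higher in every library, against 28.7% and 10.1% of all genes. In hypoxia-score cells GABARAPL1 was as low as 2.63 CPM (DMSO) and WIPI1 as low as 3.69 CPM (neratinib). CITED2, a HIF-induced antagonist of HIF coactivation, averaged 0.46 (0.19 to 0.86). Among p53 targets TP53I3 averaged -0.67 (-0.77 to -0.52) and DDB2, a DNA damage sensor, 0.44 (0.35 to 0.52). RRS1 and RRP12, ribosome assembly factors, averaged -0.63 (-1.0 to -0.18) and -0.59 (-0.80 to -0.47). The luminal gene PIP averaged 0.53 (0.04 to 1.05) and the mucin MUC1 0.42 (0.08 to 0.63). SESN2, a stress-induced sestrin, averaged -0.48 (-0.83 to -0.27), SDF2L1, an endoplasmic reticulum chaperone component, -0.50 (-0.74 to -0.30), and NFKB1 -0.53 (-0.70 to -0.21).

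**Figure D4:**
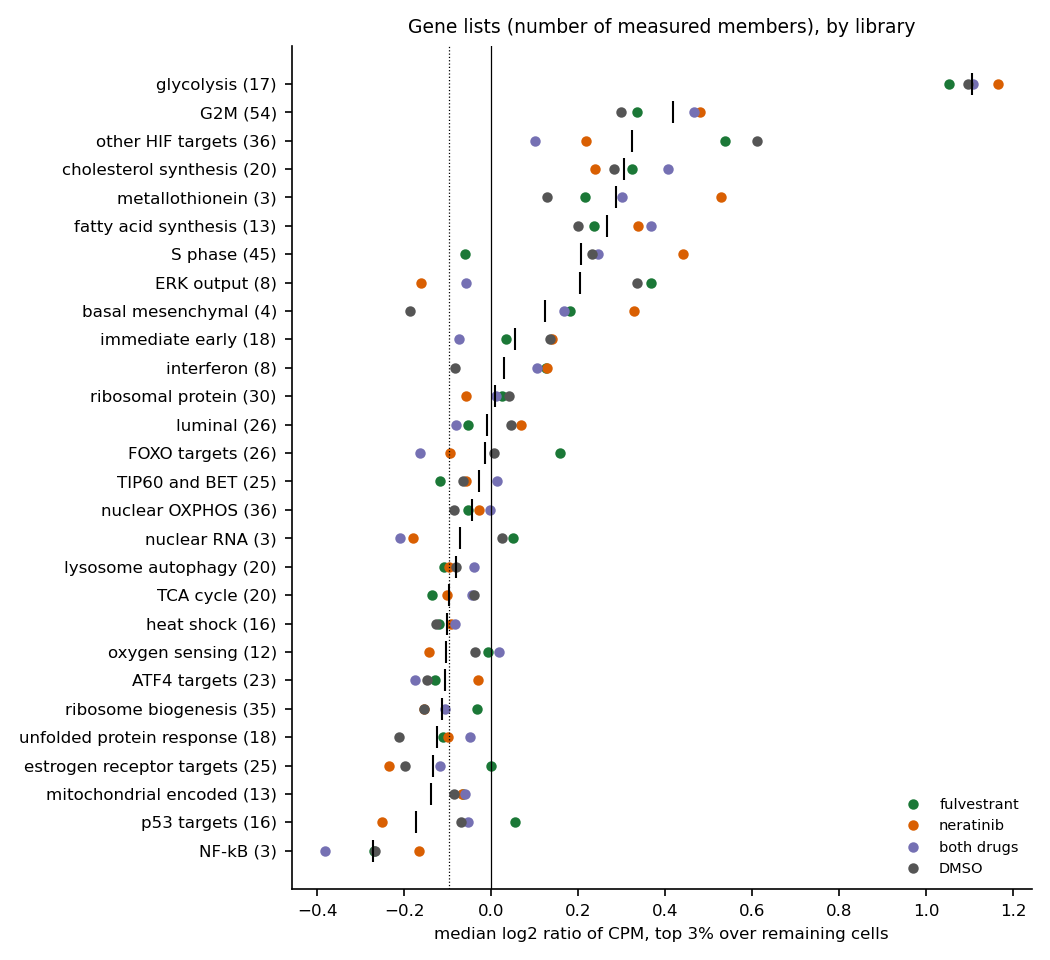
Median log2 ratio (top 3% over remaining cells) of each gene list by library (dots) and the median of its genes' mean ratios (bar), with the number of measured genes in brackets. The dotted line is the median of all 9163 genes, -0.10. Glycolysis stands apart near 1.11 in every library, and the other HIF targets spread from 0.10 with both drugs to 0.61 with DMSO.

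The difference between hypoxia-score and remaining cells was itself set beside the treatments, in 2 pairs that share no library: neratinib against DMSO, and both drugs against fulvestrant. The difference of the log2 ratio is given with a 95% interval from the 4 summed counts. It was below 0 with its interval in both pairs for 96 of 9163 genes (1.05%) and above 0 for 142 (1.55%). Of the 36 other HIF targets 9 were below and 1 above, and of the 17 glycolysis genes 2 below and 5 above. The genes named next were chosen after their values were seen. The score limit was also lower in the neratinib libraries, as given above.

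The score genes are read here from cells chosen without the gene concerned. NDRG1 then had log2 ratios of 1.22 [1.0, 1.43] with neratinib against 2.74 [2.57, 2.91] with DMSO, and 0.96 [0.72, 1.19] with both drugs against 2.82 [2.63, 3.01] with fulvestrant. EGLN3 had 1.2 [0.88, 1.51] with neratinib against 1.89 [1.72, 2.06] with DMSO, and 1.24 [0.87, 1.59] with both drugs against 1.95 [1.75, 2.14] with fulvestrant. The intervals of both genes lay lower with neratinib in both pairs. KDM3A, a histone demethylase, had 54.7 CPM (fulvestrant), 39.1 (neratinib), 30.8 (both drugs) and 55.9 (DMSO) in hypoxia-score cells, against 20.7 CPM (fulvestrant), 31.4 (neratinib), 30.8 (both drugs) and 23.0 (DMSO) in the remaining cells. Its remaining cells were higher and its hypoxia-score cells lower in the neratinib libraries, and its ratio differed by -0.96 [-1.32, -0.60] and -1.40 [-1.80, -1.0]. KDM7A, ZNF395, MXI1 and SLC2A1 differed by -1.78 [-2.70, -0.86], -1.12 [-1.68, -0.56], -1.05 [-1.61, -0.49] and -1.02 [-1.55, -0.49] with neratinib against DMSO. In the other pair these 4 genes differed by -1.61 [-2.54, -0.68], -1.28 [-1.94, -0.61], -0.81 [-1.43, -0.19] and -1.19 [-1.79, -0.59]. MXI1, a MYC antagonist, had 14.0 CPM (fulvestrant), 19.9 (neratinib), 20.1 (both drugs) and 17.4 (DMSO) in hypoxia-score cells, against 8.22 CPM (fulvestrant), 19.9 (neratinib), 20.7 (both drugs) and 8.43 (DMSO) in the remaining cells, so that the neratinib libraries stood higher mainly in the remaining cells. The further ones were HK2, ANKRD37, BNIP3L, CCNG2, PNRC1 and KDM5B, by -0.24 (PNRC1) to -0.60 (KDM5B) with neratinib against DMSO.

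Several glycolysis genes lay on the other side. The ratio of ENO1 differed by 0.23 [0.17, 0.30] with neratinib against DMSO and by 0.14 [0.07, 0.21] with both drugs against fulvestrant. GAPDH, TPI1, PKM and HK1 differed by 0.07, 0.19, 0.16 and 0.38 in the first pair. LDHA, read from cells chosen without it, had overlapping intervals in both pairs. It stood at 2.034 [1.986, 2.081] with neratinib against 1.950 [1.911, 1.989] with DMSO. In the second pair it stood at 1.959 [1.912, 2.006] with both drugs against 1.938 [1.894, 1.982] with fulvestrant. For fulvestrant, read as fulvestrant against DMSO and both drugs against neratinib, 34 genes were below 0 in both pairs (0.371%) and 21 above (0.229%).

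**Figure D5:**
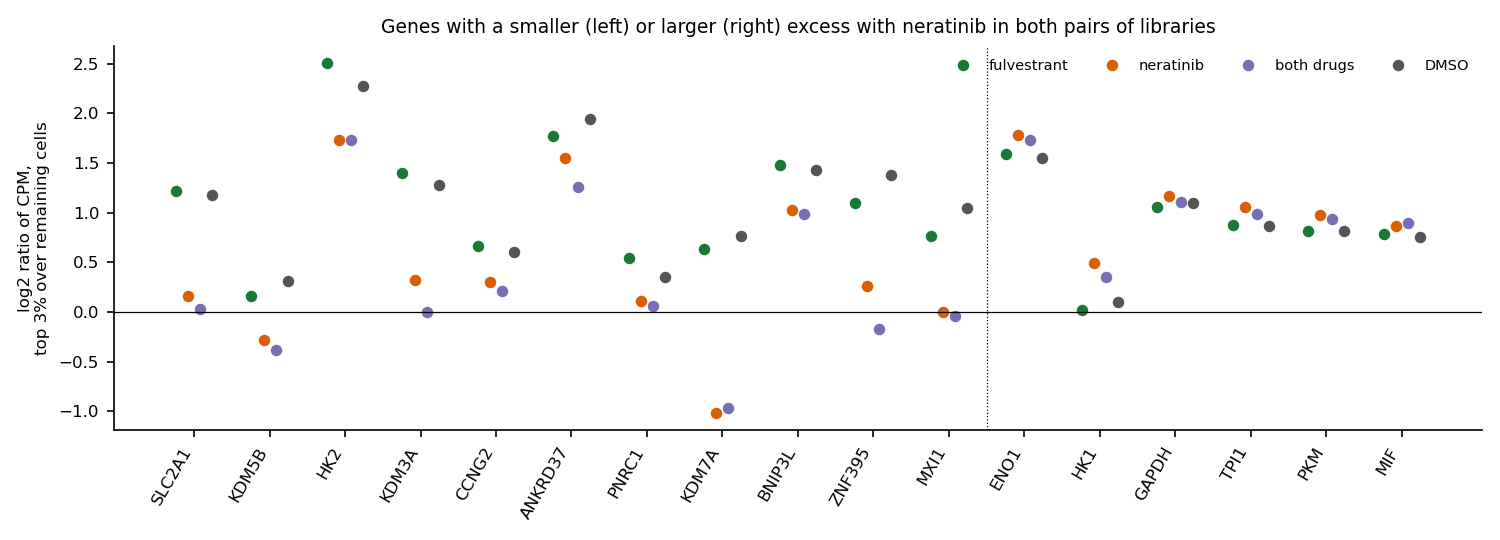
Log2 ratio of CPM (top 3% over remaining cells) by library for the glycolysis and other HIF target genes whose ratio differed in the same direction, with its interval off 0, in both neratinib pairs. Left of the dotted line the neratinib and both-drug points lie below the fulvestrant and DMSO points, and right of it above them.

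The drugs' own responses were read within hypoxia-score cells against DMSO hypoxia-score cells, beside the same ratio in the remaining cells. These ratios share the DMSO library. Hypoxia-score cells hold far fewer UMIs, and 1830 of 9163 genes were at least 1.5-fold lower in them with neratinib (20%) and 612 higher (6.68%), against 1197 lower (13.1%) and 369 higher (4.03%) in the remaining cells. With both drugs 1807 were lower (19.7%) and 693 higher (7.56%), against 1278 (13.9%) and 431 (4.70%) in the remaining cells. With fulvestrant 399 were lower (4.35%) and 396 higher (4.32%), against 38 (0.415%) and 0 in the remaining cells.

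ERK output genes, the readout of HER2 kinase signalling, were low in hypoxia-score cells too. Of 20 genes on the list, 8 reached a mean of 5 CPM over the 4 libraries. A gene can pass that limit through the DMSO and fulvestrant libraries alone, which favours lower values with neratinib. DUSP6, for example, had 2 UMIs with neratinib and 3 with both drugs in hypoxia-score cells. Of the 8 genes, 7 were at least 1.5-fold lower with neratinib and 8 with both drugs, against 6 and 8 in the remaining cells. The median was -2.42 with neratinib in hypoxia-score cells, against -2.01 in the remaining cells, and -3.10 against -2.71 with both drugs. CCND1 (cyclin D1) had 404 CPM (fulvestrant), 40.9 (neratinib), 29.4 (both drugs) and 474 (DMSO) in hypoxia-score cells, against 241 CPM (fulvestrant), 45.4 (neratinib), 30.7 (both drugs) and 311 (DMSO) in the remaining cells. With neratinib over DMSO its log2 ratio was -3.53 [-3.83, -3.26] in hypoxia-score cells and -2.77 [-2.82, -2.72] in the remaining cells. The phosphatase DUSP4 was -1.84 [-2.07, -1.61] in hypoxia-score cells and -1.83 [-1.87, -1.78] in the remaining cells. MYC was -1.11 [-1.50, -0.73] in hypoxia-score cells and -0.30 [-0.35, -0.25] in the remaining cells with neratinib, and -1.65 [-2.13, -1.2] in hypoxia-score cells and -2.30 [-2.38, -2.21] in the remaining cells with fulvestrant.

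FOXO targets, which are known to rise when PI3K and AKT signalling is blocked, were higher with neratinib in hypoxia-score cells by a median of 0.88, against 1.06 in the remaining cells. With both drugs the medians were 0.79 in hypoxia-score cells and 1.09 in the remaining cells. At least 1.5-fold higher with neratinib were 15 of 26 measured genes in hypoxia-score cells and 16 in the remaining cells. The list holds 31 genes, and the CPM limit can here be passed through the neratinib libraries alone. HBP1, a cell cycle repressor, with neratinib was 2.15 [1.80, 2.52] in hypoxia-score cells and 2.22 [2.15, 2.28] in the remaining cells. Estrogen receptor targets under fulvestrant had the same median in both, -0.37. At least 1.5-fold lower were 4 of 25 in hypoxia-score cells and 10 of 25 in the remaining cells. With fulvestrant PGR was -0.49 [-0.83, -0.16] in hypoxia-score cells and -0.81 [-0.85, -0.77] in the remaining cells.

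Glycolysis genes had medians of -0.06 with neratinib and -0.20 with both drugs in hypoxia-score cells, against -0.29 and -0.33 in the remaining cells. Other HIF targets had medians of -0.28 with neratinib and -0.47 with both drugs in hypoxia-score cells, against -0.18 with either in the remaining cells. Of these 36 targets 14 were at least 1.5-fold lower and 3 higher with neratinib in hypoxia-score cells, against 7 and 6 in the remaining cells. With neratinib VEGFA was -1.55 [-1.89, -1.22] in hypoxia-score cells and -1.24 [-1.37, -1.12] in the remaining cells. VEGFA is itself a score gene, and the score limit was 35.15 with neratinib against 40.56 with DMSO. Its value in hypoxia-score cells therefore depends on the rule.

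A fixed limit gives the share of cells by treatment. Using the lowest score of the DMSO top 3% (40.56) in every library, 97 of 3394 fulvestrant cells passed, or 2.86% [2.32, 3.48]. With neratinib 49 of 3433 passed, 1.43% [1.06, 1.88], and with both drugs 41 of 3800, 1.08% [0.775, 1.46]. The DMSO share was 3.00% by construction and so has no interval to compare. The intervals of the neratinib libraries lay below that of fulvestrant. They treat cells as independent, and the limit is set on the score that chose the cells. The median score of all cells was also lower with neratinib (7.45) and both drugs (7.38) than with fulvestrant (8.69) and DMSO (8.74). At a score of at least 16 the shares were closer in proportion, at 15.8%, 13.1%, 16.9% and 17.0% in that order. The median mitochondrial share, which enters the score's total, was also higher in the neratinib libraries, and with mitochondrial genes left out of the total the shares were 2.77% of fulvestrant cells, 1.75% of neratinib cells and 1.32% of both-drug cells. A difference between cultures of 1 treatment cannot be told apart from a difference between treatments here.

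Markers of cells that are not BT474 were low. Fibroblast markers summed to 12.2 to 19.1 CPM in hypoxia-score cells, against 10.3 to 12.5 CPM in the remaining cells, with 9 of 10 at 0 in hypoxia-score cells of every library and COL1A1 the exception. Immune markers summed to 0.369 to 2.88 CPM in hypoxia-score cells, against 1.36 to 1.79 CPM in the remaining cells, with 7 of 11 at 0, PTPRC among them. Endothelial markers summed to 28.0 to 37.2 CPM in hypoxia-score cells, against 19.4 to 25.8 CPM in the remaining cells, EGFL7 the highest of them, with PECAM1, KDR and TEK at 0. Each of the 27 luminal markers was detected in hypoxia-score cells of at least 1 library, and they summed to 8436 to 12703 CPM there, against 8032 to 11897 CPM in the remaining cells. A part of cells of these types in the differences was not tested.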

How the data were processed

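The deposited file is 1 matrix of whole-number UMI counts, 33538 genes by 27179520 unfiltered barcodes, not normalized by the authors. Per the submitters' processing notes it was made with Cell Ranger 3.1.0, and hg19 is the build named, while the gene IDs match a later annotation, so no coordinates of the files are printed. Barcodes were assigned to treatments by their numeric suffix, read as the number in the sample titles (1 DMSO, 2 fulvestrant, 3 neratinib, 4 both drugs).

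Cells, score and top 3% were set as given in the opening. Counts were summed over hypoxia-score and remaining cells of each library and scaled to CPM over genes outside the score. Ratio intervals are exact conditional binomial, share intervals exact Clopper-Pearson, at 95%. They cover counting error only, because each treatment is 1 library, and no test was run. A gene was called at 1.5-fold or more in each of the 4 libraries. The calculation was tested on simulated data. Genes were kept apart by gene ID, also the 48 that share a symbol with another.

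Genes named are the score genes, a fixed set of pathway genes, the 15 highest and 15 lowest among called genes, and up to 4 members of each of 31 lists with the greatest mean ratio in either direction. Those said to be chosen after their values were seen are exceptions. Members and lists were chosen with earlier results of these data known. Phases were called with scanpy's cell cycle scores from the S and G2M lists. No doublet caller was applied.

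Promoter windows are RefSeq, GRCh38.p14. Alternatives covered the share chosen, score weights, thinning, scaling, filters, thresholds and leaving out each library. Tools were Python 3.11.15, numpy 2.4.6, scipy 1.17.1, pandas 2.3.3, scanpy 1.11.5 and matplotlib 3.10.9.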

Additional observations from a re-analysis of the deposited data

Results flagged for a closer look

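Among the genes chosen by the naming rule or named for a difference between treatments, 5 had intervals of the log2 ratio (hypoxia-score cells over remaining cells) above 0 in some libraries and below 0 in others. EGR1, an immediate early transcription factor, stood at -2.38 with neratinib and -1.30 with both drugs, against 0.20 with DMSO. Its hypoxia-score cells held 0.737 CPM with neratinib and 1.73 CPM with both drugs, from 2 and 5 UMIs, against 70.7 CPM with DMSO. The nuclear RNA NEAT1 stood at 0.12 (fulvestrant), -0.18 (neratinib), -0.29 (both drugs) and 0.06 (DMSO). MALAT1, another nuclear RNA, stood at 0.05 (fulvestrant), -0.06 (neratinib), -0.12 (both drugs) and 0.02 (DMSO). KDM5B, a histone demethylase, stood at 0.16 (fulvestrant), -0.28 (neratinib), -0.38 (both drugs) and 0.32 (DMSO), and KDM7A, another, at 0.64 (fulvestrant), -1.01 (neratinib), -0.97 (both drugs) and 0.76 (DMSO). These differences between libraries were not tested, since each treatment is 1 library.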

How the results depend on the processing

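The glycolysis and other HIF target medians stayed above 0 in every alternative, from 0.99 to 1.24 and from 0.21 to 0.47. The glycolysis median moved by more than its spread over libraries to 1.19 with the top 1%, 1.05 with the top 5%, 1.06 with thinning to 5000 UMIs, 1.02 with equal weights, 1.17 with median-of-ratios scaling, 1.03 at 50 CPM, 0.99 in cells scored neither S nor G2M, and 1.24 against the lowest 80% of cells, an alternative chosen after seeing the data. Genes at least 1.5-fold higher in every library numbered 41 at 5 CPM and 36 in cells scored neither S nor G2M, and lower ones 48 at 5 CPM, 4 at 50 CPM and 7 with thinning. At 1.2-fold 111 were higher and 149 lower, and at 2-fold 9 and 1.

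Leaving out each library gave 25 to 29 genes higher, 16 to 20 lower (20 without DMSO), a glycolysis median of 1.08 to 1.12 and an other HIF target median of 0.27 to 0.47. Score genes read from UMIs not used to choose the cells had ratios of 1.94 (VEGFA), 2.11 (PGK1), 2.09 (BNIP3) and 1.75 (FAM162A), and when left out of the score 2.02 (PGK1), 1.97 (LDHA), 2.07 (BNIP3) and 1.69 (FAM162A). Without PGK1 and LDHA in the score, 0.763% of both-drug cells passed the DMSO limit. CCNB2 turned round with equal weights, to -0.10, and the cause was not tested. Of 2780 values of 139 other named genes, 2518 moved by less than the spread over libraries. That count includes settings that could not move a ratio so far, namely the other CPM limits and leaving out 1 library. With equal weights 46 of the 139 genes moved and 1 reversed. Without PGK1 and LDHA in the score 34 moved, and in cells scored neither S nor G2M 46. No paired analysis was possible because each treatment is 1 library. Doublets were not removed.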
